A study of Bos taurus with 25 samples.

Results

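The genes described here encode 10 proteins that the liver makes for the blood plasma: albumin (ALB), the 3 chains of fibrinogen (FGA, FGB and FGG), the apolipoproteins APOA1, APOB, APOC3 and APOH, transthyretin (TTR) and the glycoprotein A1BG. The members were every non-control probe of a bovine Agilent array whose name pairs with one of these symbols, 25 of 43653 different probes. They covered 9 of the 10 genes, with 7 probes for FGB, 4 for ALB, 3 each for FGA, APOA1 and APOH, 2 for TTR and 1 each for FGG, APOC3 and A1BG. No probe was paired with APOB, which is not analysed here. Each gene is described by its brightest probe in the tissue, called its main probe, and the other probes are given as a range.

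The RNA came from liver and mammary biopsies of lactating multiparous Holstein cows, taken 64 ± 3 days after calving and hybridized with 1 cow per array. Each week the cows received an intramuscular injection of 5 mL. Control cows (Ctl) were given saline, B9 cows 320 mg of folic acid, B12 cows 10 mg of cyanocobalamin, and B9+B12 cows both vitamins. The liver was measured in 3 Ctl, 3 B9, 4 B12 and 2 B9+B12 cows, and the mammary gland in 3, 3, 4 and 3, with 12 of the 13 cows giving both tissues. Each array of a tissue is a separate cow.

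Hepatocytes secrete most of the protein of blood plasma. Albumin keeps water in the vessels and carries fatty acids, bilirubin and many small ligands, and transthyretin carries thyroid hormone and the retinol-binding protein. The 3 fibrinogen chains are made from separate genes, joined into 1 molecule in the hepatocyte and cut by thrombin to form the clot. APOA1 is the main protein of high-density lipoproteins and activates the enzyme that esterifies their cholesterol, APOC3 slows the clearance of triglyceride-rich particles, and APOH binds anionic phospholipids. The lactating mammary gland draws on the blood for the precursors of milk, and its own secretory cells make caseins and whey proteins.

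All values are log2 signals from the authors' table, normalized within each tissue, unless stated otherwise. Members were called at a Benjamini-Hochberg adjusted p of at most 0.05 in limma, over all probes, with at least a 2-fold change. The arrays differed in quality in ways that touch the results. The liver arrays of cows 43, 37 and 32, which share slide 8, had a local background of 35 to 37, against 16 to 19 on the other 9 liver arrays. Those of cows 57 and 32 correlated least with the other liver arrays (mean r of 0.972 each). All 10 hepatocyte markers looked for were well above background on every liver array, with medians of 15.15 to 15.74, and the 9 mammary markers had medians of 18.36 to 18.45 in the gland. In liver arrays the medians of the mammary markers ran from 6.29 (cow 52) to 10.27 (cow 36). No spot was saturated. In tissue samples, fewer cells of a type and less RNA per cell cannot be told apart.

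In the liver all 9 genes were well above background on all 12 arrays and most of them lay close to the top of the intensity range. TTR held ranks 2 to 20 of 43653 probes counted from the brightest, FGA ranks 14 to 33 and ALB ranks 31 to 51. Because quantile normalization gives the same value to the same rank on every array, differences at this end are limited, and TTR read exactly 18.97 on 3 of the 4 B12 arrays. On the main probe, the spread within groups was below the median of all probes, an SD of 0.24, for 7 of the 9 genes. The other ALB probes (0.30 to 0.33), the dimmest FGA probe (0.43) and the dimmest APOH probe (0.25) were above it. The remaining probes of FGA, APOH and TTR were below it. APOA1 stood apart with an SD within groups of 0.89, at the 98.6th percentile of all probes, and it held 77.9% of the summed variance of the 9 genes within groups.

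**Figure D1:**
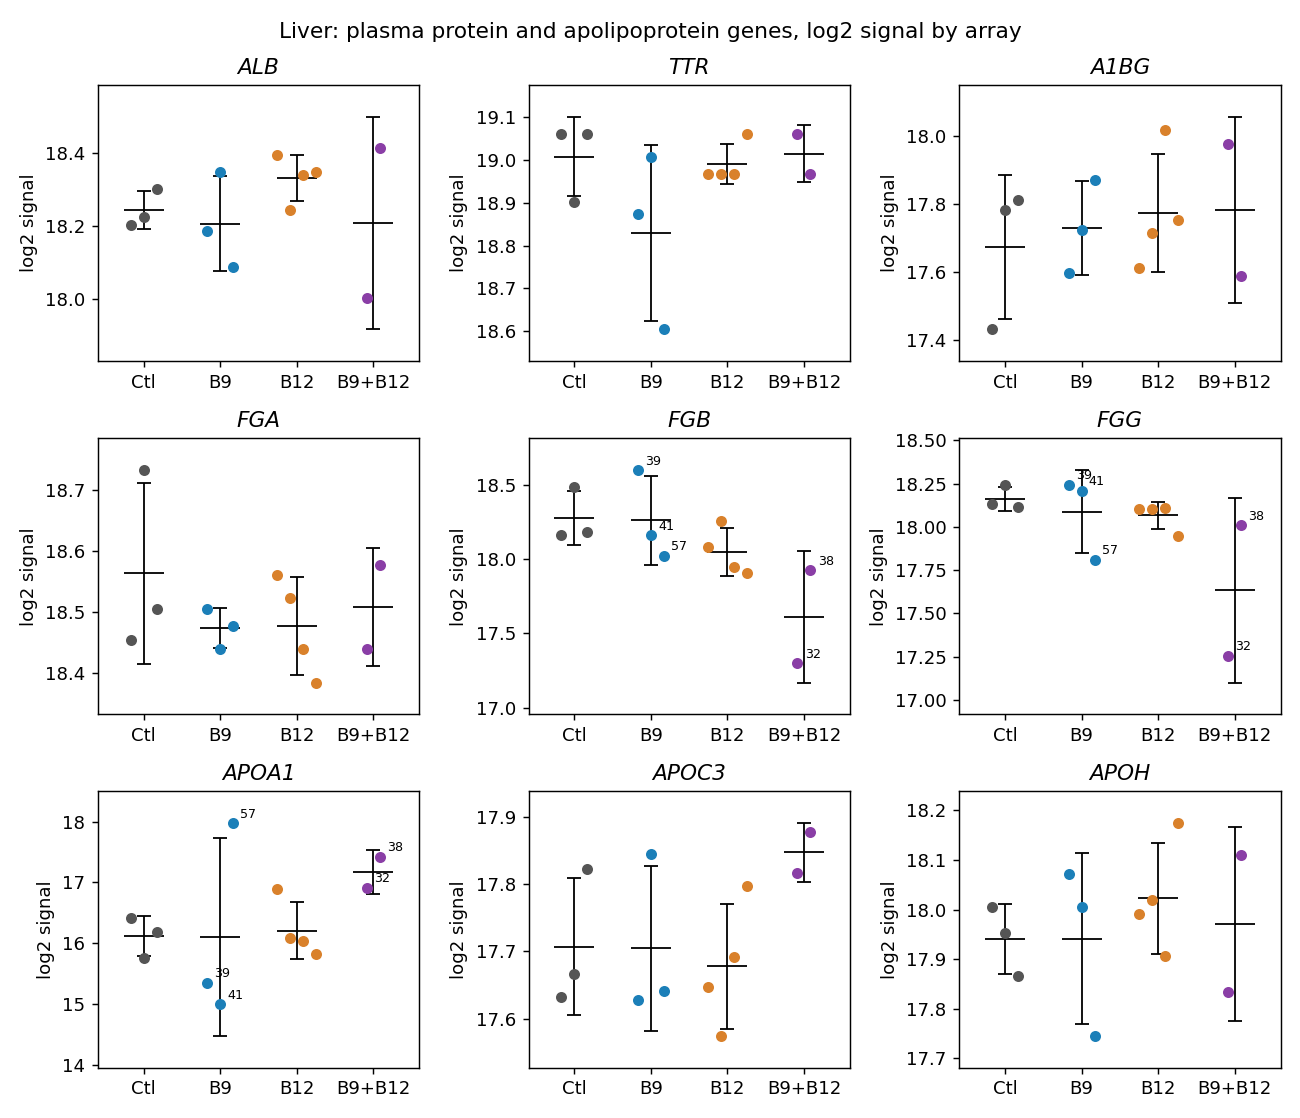
Log2 signal of the main probe of 9 genes on the 12 liver arrays, by treatment (x axis), each panel with its own y axis. Points are arrays (cow numbers are given for some), horizontal bars the mean and whiskers the SD. APOA1 spans 14.99 to 17.98, FGB 17.30 to 18.60, and APOC3 only 17.57 to 17.88.

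APOA1 was the member that varied most between cows in the liver. It read 16.41, 15.75 and 16.19 in control cows 42, 43 and 51 (16.12 ± 0.34, mean ± SD, n = 3). The B9 cows 39, 41 and 57 read 15.35, 14.99 and 17.98 (16.10 ± 1.63, n = 3). The B9 group thus held both the lowest and the highest APOA1 value of the tissue, about 3 log2 units apart. The B12 cows 36, 37, 40 and 52 read 16.88, 16.08, 16.04 and 15.81 (16.20 ± 0.47, n = 4), overlapping the controls. The B9+B12 cows 32 and 38 read 16.91 and 17.43 (17.17 ± 0.36, n = 2). Both lay above all 3 control arrays, although below the B9 array of cow 57.

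The APOA1 difference between B9+B12 and the controls was 1.05 ± 0.70 (SE) on the log2 scale, a 2.07-fold difference, and it did not pass the test (limma, adjusted p = 0.664). The exact permutation test, two-sided, gave p = 0.1, which is the smallest that 2 against 3 arrays allow. By Cyber-T, the test of the study's methods, the adjusted p was 0.0979. The other 2 APOA1 probes gave 1.06 and 1.06. The probes ran closely together over the 12 arrays (r of 0.987 to 0.997, a description, since they share each array's RNA), and on all 3 cow 57 was highest and cow 41 lowest. Within the slides that hold both groups, cow 38 lay 1.02 above cow 42 on slide 4 and cow 32 lay 1.16 above cow 43 on slide 8. For B9 the APOA1 difference was −0.01 ± 0.63 (SE). It went to −0.95 without cow 57 and to 0.54 without cow 41, so single arrays decided its sign. The 3 liver arrays with the highest APOA1 (cows 57, 38 and 32) were also those with the highest median of the 2 measured endothelial markers, at 9.36, 9.04 and 9.69, against 8.77 or less on the other 9. The part of these markers in the APOA1 values was not tested.

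**Figure D2:**
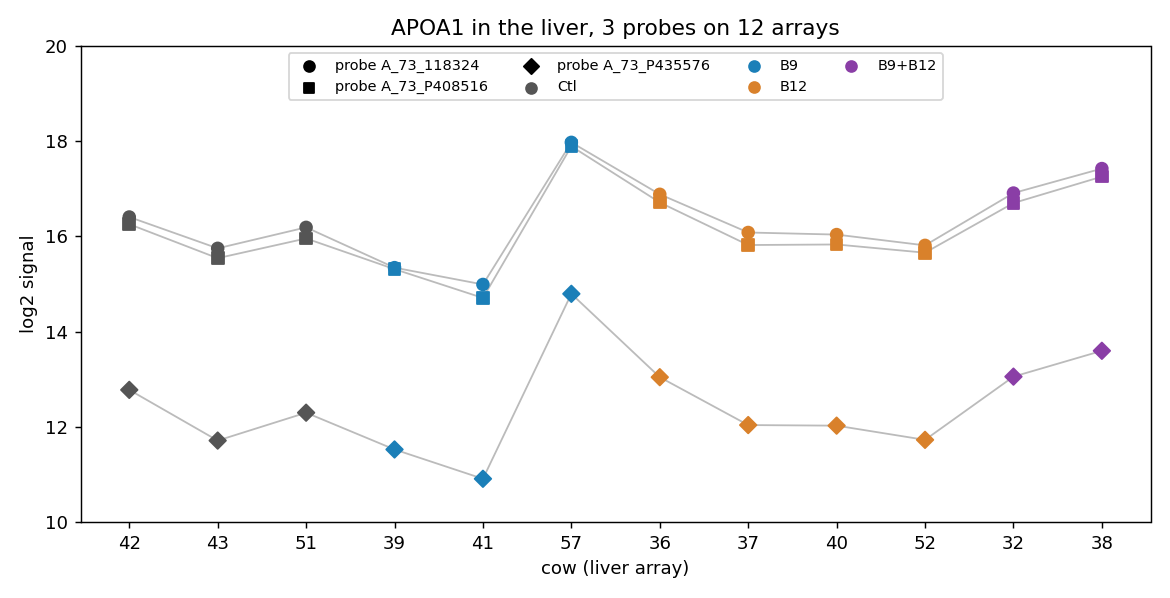
Log2 signal of the 3 APOA1 probes (marker shape) on the 12 liver arrays, ordered by treatment (colour) and cow on the x axis. The 3 probes follow the same course, highest in B9 cow 57 and lowest in B9 cow 41, and both B9+B12 arrays lie above the 3 Ctl arrays.

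Fibrinogen was the other group of members with values apart from the controls with both vitamins. FGB, the beta chain, read 18.16, 18.49 and 18.19 in the controls (18.28 ± 0.18, n = 3), 18.60, 18.16 and 18.02 in B9 cows 39, 41 and 57, and 18.09, 18.26, 17.95 and 17.91 in B12 cows 36, 37, 40 and 52. In B9+B12 it read 17.30 in cow 32 and 17.93 in cow 38 (17.61 ± 0.44, n = 2). Both B9+B12 arrays lay below every control, and cow 32 had the lowest FGB of all liver arrays. FGG, the gamma chain, gave 18.13, 18.24 and 18.11 in the controls (18.16 ± 0.07, n = 3) and 17.26 and 18.01 in B9+B12 (17.63 ± 0.53, n = 2), with no overlap. FGA, the alpha chain, overlapped on its main probe, at 18.45, 18.73 and 18.50 against 18.44 and 18.58.

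The difference of B9+B12 from the controls was −0.67 ± 0.22 (SE) for FGB, −0.53 ± 0.21 for FGG and −0.06 ± 0.12 for FGA, each with an adjusted p of 0.664 or more in limma. The exact two-sided permutation test gave p = 0.1 for FGB and for FGG, again the smallest possible. Over the 11 fibrinogen probes all 11 differences were below 0, from −1.04 to −0.06. The arrays did not overlap for 9 of the 11, where 9.97% of all probes lay below all controls in this comparison. 6 of the 11 had an unadjusted p under 0.05, against 2.73% of all probes in that direction. With B12 alone all 11 differences were below 0 too, from −0.62 to −0.09, with 1 of the 11 clear of the controls, and with B9 5 were above and 6 below 0. Probes of 1 gene share their transcript and the comparisons share their controls, so these counts are a description. The 2 dimmer FGA probes were at −0.39 and −0.81, apart from the main probe. On the dimmest the B9+B12 arrays read 14.28 and 14.45, against 15.05 to 15.27 in the controls, and cow 38 was the lowest of all liver arrays.

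On their main probes, the FGB and FGG differences with B9+B12 rested largely on cow 32. Without it, FGB was at −0.35 and FGG at −0.15, and without cow 38 they were at −0.98 and −0.91 (limma, adjusted p = 0.0779 and 0.0619). Within slide 8 cow 32 lay below control cow 43 by 1.19 for FGB (17.30 against 18.49) and within slide 4 cow 38 lay below control cow 42 by 0.24 (17.93 against 18.16). Scaling by the 75th percentile of each array in place of quantiles put FGB at −0.31 and FGG at −0.15, neither clear of the controls, while the median of all probes moved from 0.02 to 0.12 and that of the 500 brightest from 0.03 to 0.43. APOA1 stayed above all controls under that scaling, at 1.34. On the array of cow 32 the 5 measured macrophage markers (median 11.83) and the 2 measured endothelial markers (9.69) were at their highest among liver arrays, while in cow 38 the macrophage median was 10.95, below the 11.06 to 11.30 of the controls. Over both B9+B12 arrays the endothelial median was 9.04 to 9.69 against 8.52 to 8.77 in the controls, and the hepatocyte median was 15.37 on both against 15.46 to 15.74. The medians of the 3 lymphocyte markers (10.20 and 10.26 against 9.08 to 9.85) and of the 9 mammary markers (7.29 and 7.89 against 6.68 to 6.86) were also above all controls. Some arrays with a single vitamin held such medians too. The lymphocyte median was 10.61 in B9 cow 39 and the endothelial median 9.36 in B9 cow 57. In B12 cow 37 the hepatocyte median was 15.15 and the mammary median 9.77. The part of these markers in the fibrinogen result was not tested.

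The plasma carriers and A1BG differed little between groups. ALB read 18.20, 18.22 and 18.30 in the controls, 18.19, 18.35 and 18.09 with B9, and 18.40, 18.24, 18.34 and 18.35 with B12. With B9+B12 ALB read 18.00 and 18.41, which were the lowest and the highest ALB values of the liver. The ALB differences from the controls ran from −0.04 to 0.09 over the 3 treatments. On the 3 dimmer ALB probes they ran from −0.23 to −0.17 with B9, from −0.06 to −0.03 with B12 and from −0.13 to −0.07 with B9+B12. TTR read 19.06, 18.90 and 19.06 in the controls and 18.87, 19.01 and 18.60 in B9 cows 39, 41 and 57. Its B9 difference was −0.18 ± 0.12 (SE; limma, adjusted p = 0.891), with cow 57 the lowest of all liver arrays. On the second TTR probe all 3 B9 arrays lay below all controls, by a mean of 0.15. A1BG, whose function is not well known, had differences between 0.05 and 0.11, with overlapping arrays in every comparison.

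Of the other apolipoproteins, APOC3 had a range of 0.30 over the 12 liver arrays and an SD within groups of 0.10, like FGA. It read 17.82 and 17.88 in the B9+B12 cows against 17.63, 17.67 and 17.82 in the controls, a difference of 0.14 ± 0.13 (SE), and cow 32 lay within the controls' range. With normexp at an offset of 50 both arrays were above all controls. APOH had differences of 0.00 for B9, 0.08 for B12 and 0.03 for B9+B12, all with overlapping arrays, and its 2 other probes ran from −0.11 to 0.08. Neither gene passed the test in any comparison.

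Over all comparisons in the liver no member was called by limma or by Cyber-T, on its main probe or on any of the 25 probes. With B9, the members' differences ran from −0.18 to 0.05 (median −0.02, against 0.02 over all probes), and on the main probe no member's arrays were clear of the controls (4.28% of all probes lay above and 4.16% below; limma called 0% of all probes and Cyber-T 0.0115%). With B12 they ran from −0.23 to 0.10 (median −0.02, against 0.00), where FGG alone lay below all controls, by 0.10 (exact two-sided permutation test, p = 0.0571, smallest possible 0.0286), and under neither other normalization. There 2.45% of all probes lay above and 2.51% below, and limma called 0.00229% and Cyber-T 0.11%. With B9+B12 they ran from −0.67 to 1.05 (median 0.01, against 0.02). APOA1 lay above and FGB and FGG below the controls, where 11.8% of all probes lay above and 9.97% below, and limma called 0% and Cyber-T 0.0596%. At an unadjusted p under 0.05 in limma no member passed with B9 (1.97% of all probes higher, 1.44% lower) or B12 (1.08% and 0.909%). With B9+B12 the 2 that passed were FGB and FGG, both lower (3.24% of all probes higher and 2.73% lower). All comparisons share the 3 control arrays. The interaction of B9 with B12 was largest for APOA1 (0.98 ± 0.92, SE) and FGB (−0.42 ± 0.29), and no member passed (limma, adjusted p = 1.00 for both, 0% of all probes called). At an unadjusted p under 0.05 the interaction took 0 members and 3.84% of all probes in the liver, and 0 members and 3.22% in the gland, where 0% were called.

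**Figure D3:**
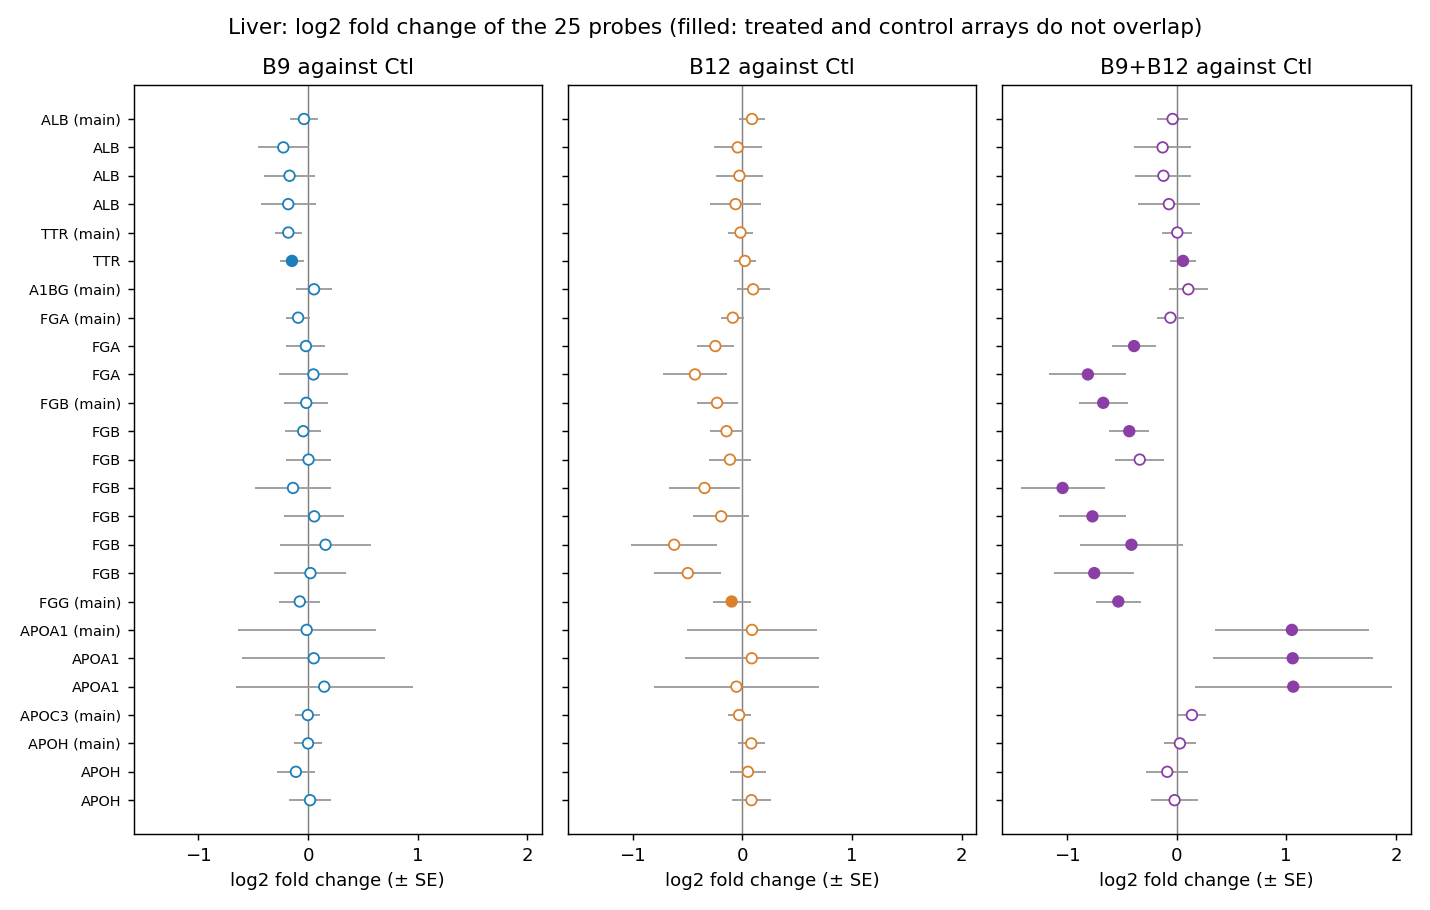
Log2 fold change against the controls (x axis, bars show the SE of limma) of the 25 probes of the 9 genes in the liver, a panel per treatment, with the main probe of each gene marked. Filled points are probes whose treated arrays lie all above or all below the 3 control arrays; in B9+B12 these are 3 APOA1 probes and 1 TTR probe above, and 9 fibrinogen probes below.

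Genes that work with the members were looked at in 6 lists. None of the 77 measured list genes was called in any liver comparison, and the list medians stayed between −0.33 and 0.22. The widest medians were in the acute phase list (10 of 12 genes measured), at −0.33 with B9+B12 and −0.27 with B12. Its HAMP, the iron-regulating hormone hepcidin, averaged 12.77 ± 0.58 in the controls and 13.94 ± 0.41 with B9+B12, a difference of 1.17 ± 0.36 (SE). ITIH4, an acute phase protein, was at −0.32 ± 0.14 with B12. Among 10 other apolipoproteins, APOM, which carries sphingosine-1-phosphate on high-density lipoproteins, was at 0.34 ± 0.15 with B12, and APOC4 at 0.32 ± 0.22 with B9+B12. LCAT, the cholesterol-esterifying enzyme that APOA1 activates, was at 0.35 ± 0.18 with B9+B12. SAR1B, which serves the export of lipoproteins from the endoplasmic reticulum, was at −0.96 ± 0.51 with B9+B12, with overlapping arrays. Both B9+B12 arrays lay above all controls for LCAT, HAMP, APOC4 and, named below, DBP, as they did for 11.8% of all probes.

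In the clotting list (16 of 18 genes measured), the fibrinogen-like FGL1 was at −0.73 ± 0.32 with B9+B12 with overlapping arrays, and clotting factor F9 at −0.37 ± 0.18 with B9. Of the transcription factors of hepatocytes (11 of 16 measured), the clock output factor DBP was at 0.51 ± 0.26 with B9+B12. Of 18 plasma carriers, AFM, which binds vitamin E, was at −0.61 ± 0.33 and HRG, the histidine-rich glycoprotein, at −0.51 ± 0.32 with B9. The genes named here were among those with the largest moderated statistic of their list over the liver comparisons, and their adjusted p in limma was 0.664 or more.

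Between liver arrays FGB and FGG varied together. After removal of the group means, FGB and FGG gave Pearson's r = 0.825 over 12 arrays (permutation test, p = 0.00038, adjusted p = 0.0137 over 36 pairs of members) and Spearman's rho = 0.837 (permutation test, p = 0.001, adjusted p = 0.036). Without the 2 arrays farthest from the FGB median r was 0.740, and without slide 8 it was 0.831. FGA did not pass with either, at r = 0.708 with FGB (permutation test, adjusted p = 0.0714) and r = 0.479 with FGG (permutation test, adjusted p = 0.263). ALB and FGG gave r = 0.814 (permutation test, p = 0.00201, adjusted p = 0.0362), with rho = 0.571 (permutation test, p = 0.0547, adjusted p = 0.281), and r fell to 0.484 without the 2 arrays farthest from the median of ALB, so that relation rests on those arrays. APOA1 and TTR gave r = −0.776 (permutation test, adjusted p = 0.0686), and −0.153 without the 2 farthest arrays. Removal of the group means ties the values within a group, and those of the 2 B9+B12 arrays become mirror images. The permutations treated all 12 values as free, so the p-values of these pairs may be too small. Beyond the members, the genes whose deviations followed the members' mean most closely, of 8943 compared over 12 arrays, were FEZ1 (r = 0.961), NDRG2 (0.937), RPS6KA2 (0.927), ARL1 (0.895) and JTB (0.870), given as a description with no test. That mean was not a course shared by the members. Their own r with it was 0.692 for APOA1, 0.487 for FGA, 0.438 for ALB, 0.405 for FGG and 0.365 for FGB. It was −0.030 for APOH, −0.130 for APOC3, −0.283 for A1BG and −0.661 for TTR.

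In the mammary gland the same genes fell into 2 sets. TTR, FGG, APOA1, A1BG and APOC3 were well above background on all 13 arrays. ALB, FGA, FGB and APOH were well above background on 10, 9, 8 and 9 of them with the brightest mammary probe. FGG read 9.58 to 10.84 over the 13 arrays and TTR 11.16 to 14.21, the top value in B12 cow 52, where the other 3 B12 cows read 11.16, 11.45 and 11.76. APOA1 read 8.18 to 9.07 on 12 arrays and 10.95 in B9+B12 cow 31. Both TTR probes were highest in cow 52 and all 3 APOA1 probes in cow 31. Among the mammary arrays, cow 31 also had the highest endothelial median (8.35, against 7.36 to 8.06 on the others). Cow 52 had the highest macrophage median (8.71, against at most 8.01) and fibroblast median (12.74, against at most 11.98). Their part in the TTR and APOA1 values was not tested. FGG has 1 probe on the array, so its mammary signal has no second probe to set beside it.

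**Figure D4:**
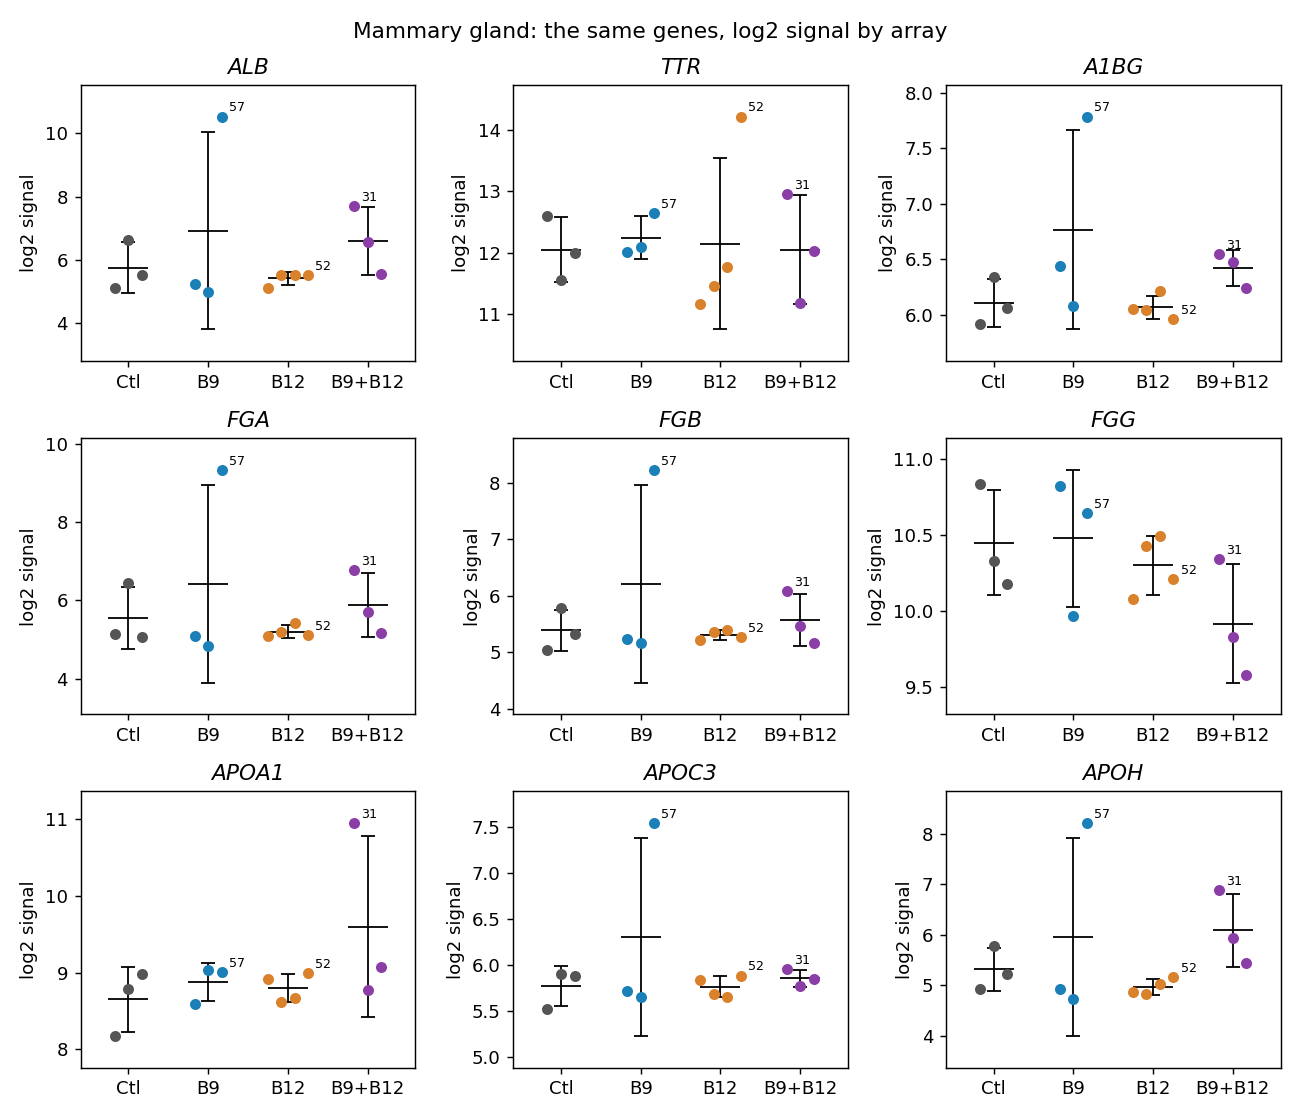
Log2 signal of the main mammary probe of the 9 genes on the 13 mammary arrays, by treatment (x axis), each panel with its own y axis. Points are arrays, horizontal bars the mean and whiskers the SD. B9 cow 57 is highest in 6 of the 9 genes, for ALB at 10.52, while TTR is highest in B12 cow 52 and APOA1 in B9+B12 cow 31.

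The second set was set apart by single arrays. ALB read 10.52 in B9 cow 57, 7.70 in B9+B12 cow 31, 6.64 in Ctl cow 43 and 6.55 in B9+B12 cow 32, and between 4.99 and 5.56 on the other arrays. FGA read 9.33 in cow 57 and 6.78 in cow 31, against 4.84 to 6.45 elsewhere. APOH read 8.21 in cow 57 and 6.88 in cow 31, against at most 5.94 elsewhere, and FGB 8.22 in cow 57. A1BG (7.78) and APOC3 (7.55) were also highest in cow 57. Of the 25 probes, 19 were highest in cow 57, and 25 of 25 were well above background there, against 7 to 21 on the other 12 arrays.

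As a share of the mean liver signal, the processed signal of the members in the mammary array of cow 57 ran from 0.100% (APOC3) to 1.59% (TTR), with a median of 0.249%. The median was 0.0400% in cow 31, 0.0212% in cow 43, 0.0186% in cow 32 and 0.00868% to 0.0147% in the other 9. The median of the 10 hepatocyte markers was highest in cow 57 as well, at 0.0923% of the liver signal with 8 of 10 well above background. In the other arrays it was 0.00949% to 0.0384% with 2 to 5 of 10. Cow 31 was at 0.0292%, below cows 43 (0.0384%) and 32 (0.0334%). In cow 57 CPS1, a urea cycle enzyme, stood at 0.110% and ARG1 at 0.0748%, against 0.00709% and 0.00125% in cow 41. CPS1 was at 0.0245% in cow 31. The largest share of any marker went the other way, at 7.29% in cow 57 and 9.40% in cow 41. These shares use the probe brightest in the liver. With the probe of each marker that is brightest in the gland, the median log2 signal was 5.91 in cow 57, with 8 of 10 well above background, and 4.87 to 5.38 in the other mammary arrays, with 3 to 7 of 10. The part of liver RNA in the mammary values of the members was not tested. Among the genes that followed the members' mean deviation most closely in the gland, of 8472 compared over 13 arrays, were SERPINA3-3 (r = 0.967), TF (0.946), SERPINC1 (0.930) and ORM1 (0.920). Each of them was highest in cow 57, TF at 10.77 and ORM1 at 10.33.

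The treatments gave no called member in the gland, by limma or by Cyber-T, and on the main probe the arrays of every member overlapped the controls in each comparison (for B9 3.82% of all probes lay above and 3.18% below, for B12 2.2% and 1.66%, for B9+B12 3.44% and 3.45%; limma called 0% in each and Cyber-T 0.0275%, 0.0275% and 0.0229%). No member had an unadjusted p under 0.05 in limma, against 1.42% of all probes higher and 1.18% lower for B9, 1.29% and 0.955% for B12, and 0.987% and 0.992% for both vitamins. With B9 all 9 differences were above 0, from 0.03 for FGG to 1.17 ± 1.13 (SE) for ALB, where 50.5% of all probes were above 0. Without cow 57, 7 of these 9 were below 0, with ALB at −0.63, FGA at −0.58 and APOH at −0.49, and A1BG at 0.15 and APOA1 at 0.16 stayed above. With B12 the differences ran from −0.35 to 0.15. With B9+B12 8 of 9 were above 0, against 49.6% of all probes. They ran from −0.53 ± 0.25 for FGG to 0.95 ± 0.44 for APOA1, and without cow 31 the APOA1 difference was 0.27 and that of FGG −0.75. Without that array 5 of 9 were above 0, with TTR at −0.45, FGA at −0.12 and FGB at −0.07.

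Between the tissues, with the arrays of both normalized together, every member was higher in the liver. All 9 genes passed (limma, adjusted p of 5.76e-12 or less; 8.8% of all probes were called higher in the liver and 9.89% lower), and on all 25 probes every liver array lay above every mammary array, as did 12.6% of all probes. The difference was smallest for TTR, 5.79 ± 0.28 (SE) on the log2 scale or 55.4-fold, for APOA1, 5.86 ± 0.34 or 58.2-fold, and for FGG, 6.43 ± 0.13 or 86.5-fold. It was 9.99 ± 0.14 for A1BG, 10.30 ± 0.13 for APOC3, 10.79 ± 0.42 for ALB, 10.83 ± 0.25 for APOH, 11.18 ± 0.25 for FGB and 11.52 ± 0.33 for FGA. Both other fibrinogen chains thus stood farther from their mammary level than FGG did. The liver main probes of FGB, FGA, APOH and ALB were well above background on 4, 9, 9 and 10 of the 13 mammary arrays, so the sizes of these differences depend on the handling of background. Over the alternatives they ran from 9.31 to 14.30 for FGB, 10.00 to 13.19 for FGA, 9.96 to 12.88 for APOH and 10.51 to 12.08 for ALB. For the genes above background on every mammary array they ran from 5.46 to 6.84 for TTR, 5.57 to 7.42 for APOA1, 6.27 to 7.70 for FGG, 9.90 to 11.40 for A1BG and 10.22 to 11.81 for APOC3.

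**Figure D5:**
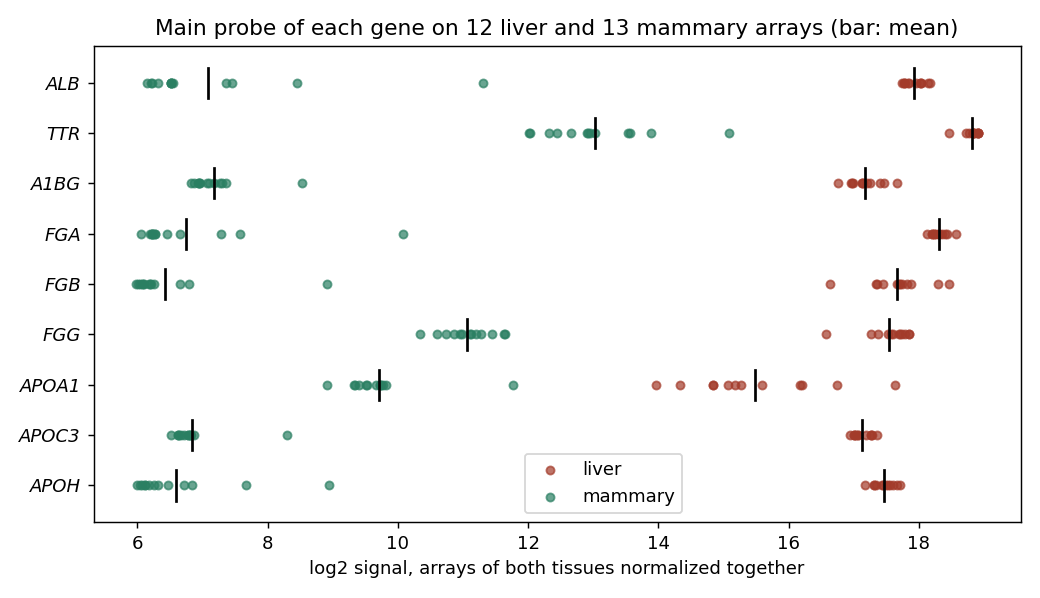
Log2 signal of the main liver probe of the 9 genes (x axis, genes in rows) on 12 liver and 13 mammary arrays after normalization of all arrays together. Points are arrays and vertical bars the tissue means. No array of one tissue overlaps the other, and TTR, FGG and APOA1 have the smallest distance between tissues.

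The effects of the treatments on the members were not shown to differ between the tissues. The largest differences between the effect in the liver and that in the gland were −1.20 ± 1.19 (SE) for ALB with B9 and −1.01 ± 0.74 for FGB with B9+B12. No member passed in any of the 3 tests (limma, adjusted p of 0.835 or more), where 0% of all probes were called, and none had an unadjusted p under 0.05 on its main probe (all probes: 2.36% for B9, 1.82% for B12, 4.25% for both vitamins).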

How the data were processed

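The authors hybridized Cy3-labeled RNA of liver and mammary biopsies to 25 Agilent bovine 4x44K arrays and deposited the scanner output, with the intensity and local background of each spot, not normalized. Per the file headers it was extracted with Feature Extraction 10.7.3.1 (9.1 per the labels). The authors also deposited a table of log2 values, corrected by normexp and normalized between the arrays of each tissue in FlexArray. Against a normexp (offset 16) and quantile run on the scanner files, the median distance of its log2 values was 0.00185 in the liver and 0.000951 in the gland. They were joined to the scanner files by spot number and spots of a probe were averaged. These values were used as given for values and comparisons within a tissue. For the tissue comparison, median intensities were corrected by normexp (offset 50), with outlier spots left out, and normalized by quantiles over all arrays. Names came from RefSeq (53.85% of probes paired). Since the array's annotation is of another build, no position is given, and no sequence was at hand.

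Groups and cow numbers came from the sample titles. R 4.3.3 with limma 3.58.1 and the data.table package (version 1.17.8) was used. Treatments were set against the controls in 1 limma model per tissue that holds every treatment group, and probes were called at an adjusted p of 0.05 and a 2-fold change. Single values had exact permutation tests, and correlations 100000 permutations. Cyber-T used a window of 101 and a confidence of 10. On simulated data with 200 changed probes limma found 90.0% of them for liver B9+B12 and 95.5% to 100% for the others. The share found at the size of the members' differences from the controls was not tested. The members and the lists of other genes and cell markers were chosen with earlier results of these data known. Named are every member, the 2 list genes with the largest moderated statistic in the liver per list, and the 5 genes most like the members' mean deviation per tissue, except for some that are not reported here. The marker lists were hepatocyte, mammary epithelium, macrophage, adipocyte, erythroid, endothelial, fibroblast, biliary, lymphocyte and muscle.

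The cow pairs the tissues, since both biopsies come from the same animal. The deviations of a cow's liver and mammary arrays correlated between −0.292 and 0.265 (median 0.021) over 25553 probes, and in 0 of 12 cows was its own the best match. The signal over background was 2.24 to 10.4 in the liver and 2.93 to 5.06 in the gland. The number of arrays limits the precision.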

Additional observations from a re-analysis of the deposited data

Results flagged for a closer look

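In 3 of the 18 sets of 4 arrays (the B12 cows, 9 genes, both tissues) a single array lay so far from the nearest other that the gap took more of the whole range of the set than Dixon's critical value for 4 arrays. Chance gives this in about 1 in 20 sets of continuous values without ties. In the liver, FGG of cow 52 read 17.95, where the other 3 arrays read between 18.105 and 18.109. TTR of the same array read 19.06, where the other 3 all read 18.97. Those 3 values are exactly tied, as equal ranks are given equal values, so that rate does not apply to TTR. In the mammary gland, ALB of cow 36 read 5.11, where the other 3 read 5.51 to 5.52. ALB was not well above background on the array of cow 36 and was so on the other 3. In these sets the gap took 0.974, 1 and 0.991 of the range. No explanation was tested.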

How the results depend on the processing

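No count of called members changed. It was 0 of 9 for each treatment and for the interaction in both tissues, and 9 of 9 for liver against mammary, under every alternative run and with each array left out in turn. Cyber-T was run for the comparisons of each treatment with the controls only, and called 0 of 9 in each. With 1 of the 2 liver B9+B12 arrays left out, the remaining one is assumed to vary like the other groups. The replicate block (cow, which pairs the tissues) gave 9 called members for the tissues and 0 differences in treatment effect, with a consensus correlation of −0.0221. Slide as a random block had a correlation of 0.0287 in the liver and 0.197 in the gland. Of the differences of single members from the controls, 38 of 243 in the liver and 12 of 216 in the gland changed sign under an alternative, and 33 of 162 and 30 of 171 with an array left out. None of these was called. With scaling by the 75th percentile, 9 of 9 members were above 0 with liver B9 (median 0.17, against 0.03 for all probes and 0.26 for the 500 brightest), where 1 of 9 was so in the authors' table, so bright probes in general moved with this scaling. Leaving out the 3 liver arrays of slide 8, an alternative chosen after seeing the data like those without cows 57 and 32 or 57 and 31, put FGB at −0.25, FGG at −0.11 and APOA1 at 1.13 with B9+B12. Dim spots limit the mammary values of ALB, FGA, FGB and APOH.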

Other observations

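Markers of other cell types had these median log2 signals over the 12 liver arrays. The 3 adipocyte markers ran from 5.66 to 6.12, the 4 erythroid markers from 5.81 to 6.95, the 4 fibroblast markers from 10.73 to 11.62, the 2 biliary markers from 7.21 to 8.73, the 3 lymphocyte markers from 8.65 to 10.61 and the 3 muscle markers from 5.27 to 6.66. Over the 13 mammary arrays the macrophage markers ran from 7.29 to 8.71 and the endothelial markers from 7.36 to 8.35. B9 cow 57, with the highest mammary values of most of the plasma protein genes, had the lowest lymphocyte (7.75) and muscle (7.11) medians of the mammary arrays and the highest biliary median (11.74). The biliary medians ran from 10.58 to 11.74 over the mammary arrays, above every liver array, on values normalized within each tissue. In the gland they cannot be read as markers of bile duct.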
